A study of Rattus norvegicus with 12 samples.

Results

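The 10 genes described here, most with nuclear or chromatin roles, are Hira, Setd5, Ankrd11, Dhx36, Nek1, Kpna1, Srrm2, Thoc3, Ube3al1 and Mettl16. An earlier look at these arrays had found them far lower in 1 group of muscles. They were taken with every probe set that carried the symbol and no other, 25 probe sets of 31042 that were not controls, and 10 genes of 14217. The genes were selected on the log2 intensities of that group, low stretch with low shortening, against the other groups, so this difference is given as a description without a test. What the choice did not fix is how the remaining probe sets of the same genes behaved, how the genes varied among the other groups, and what happened to their partner genes.

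The arrays measured messenger RNA in 12 right ventricular papillary muscles, thin columns of heart muscle that hold the tricuspid valve. Each came from a separate adult male LBNF1 rat, was hung in a bath of oxygenated Medium 199 at 37 °C, was paced at 1 Hz and was kept for 12 h. Mean stretch above slack length was set to 16% or 4%, and cyclic shortening to 16% or 4%. The 4 groups of 3 muscles are called by stretch first and shortening second: high-high, high-low, low-high and low-low. All 4 groups shared the culture, the pacing and the isolation from the animal, and no muscle frozen without culture was analysed here. Labelled age was 75 in each low-low rat and 72 to 85 in the others, in a unit that the labels do not state. The labels give a different animal for each muscle, so the spread between arrays includes that between rats.

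Most of these proteins work on chromatin or on RNA inside the nucleus. A histone chaperone places histones on DNA outside of replication, corepressor complexes remove acetyl groups from histones, and methyltransferases mark histones or RNA. A nascent transcript is spliced near the speckles, is packed by the THO and TREX complexes for export, and passes the nuclear pore, while importins carry proteins the other way. Heart muscle cells divide little after birth, so histone exchange outside of replication and RNA handling are the usual setting for such genes in adult myocardium.

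Promoters are shown for 3 of the genes, picked because they share a motif. Their brightest probe sets were low in the same 3 arrays, as those of all 10 genes were by the choice. RefSeq's promoter table of the assembly GRCr8 held 6 of the 10 genes, with 250 bases before and 50 after the annotated start. The sequences are of Hira (chr11:95637516-95637815, minus strand), Dhx36 (chr2:149044142-149044441, minus strand) and Thoc3 (chr17:10148031-10148330, plus strand), written 5′ to 3′ along the gene. Capitals mark GGGCGG, the core of a GC box, CCGGAAG, an ETS core, and the palindrome bound by NRF1, each on either strand and without overlaps.
Hira: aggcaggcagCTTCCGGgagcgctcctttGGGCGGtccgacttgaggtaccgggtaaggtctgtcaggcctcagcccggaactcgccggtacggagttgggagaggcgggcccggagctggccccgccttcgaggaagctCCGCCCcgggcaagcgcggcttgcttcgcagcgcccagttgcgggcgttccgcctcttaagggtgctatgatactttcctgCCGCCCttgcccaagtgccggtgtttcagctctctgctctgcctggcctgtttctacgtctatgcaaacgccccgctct
Dhx36: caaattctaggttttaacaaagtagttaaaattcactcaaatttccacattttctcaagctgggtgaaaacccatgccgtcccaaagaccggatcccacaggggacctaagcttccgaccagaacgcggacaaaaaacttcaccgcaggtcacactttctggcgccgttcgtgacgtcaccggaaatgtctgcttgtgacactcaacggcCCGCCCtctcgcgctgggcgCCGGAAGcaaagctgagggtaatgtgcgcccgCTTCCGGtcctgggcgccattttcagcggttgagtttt
Thoc3: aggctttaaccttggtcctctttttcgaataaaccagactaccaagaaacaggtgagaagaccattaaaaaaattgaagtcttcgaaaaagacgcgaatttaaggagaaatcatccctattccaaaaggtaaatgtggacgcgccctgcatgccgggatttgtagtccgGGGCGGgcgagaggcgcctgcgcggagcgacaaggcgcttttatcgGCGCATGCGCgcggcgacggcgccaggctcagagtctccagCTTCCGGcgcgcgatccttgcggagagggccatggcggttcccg

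Counted from 1 at the 5′ end of the window, the Dhx36 promoter held CCGGAAG at bases 231 to 237 and its reverse complement at 263 to 269. The Hira promoter held the reverse complement at 11 to 17, and Thoc3 at 257 to 263. The ETS letters thus occur in all 3 printed promoters, picked for that, and in 0 of the other 3, while 8.75% of 33465 RefSeq promoters of the same length carried them. GGGCGG was in 4 of the 6 promoters (Hira, Dhx36, Thoc3 and Ankrd11), against 33.1% of all promoters. The NRF1 palindrome was in that of Thoc3, at bases 216 to 225, and in 0.852% of all. CCAAT was in that of Ankrd11 and in 37.5% of all, and TATAAA (14.2% of all) and CACGTG (6.42% of all) were in 0 of the 6. None of the 6 motifs was in the Nek1 and Ube3al1 windows. A match describes letters only, and 6 promoters are too few to set a share against that of all. The guanine and cytosine content was 65.7% for Hira and Ankrd11, 57.3% for Nek1, 55.7% for Thoc3, 53.3% for Dhx36 and 43.3% for Ube3al1, with a median of 51.7% over all promoters.

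Values are log2 intensities after RMA normalization, and each gene is led by its brightest probe set, the one with the highest mean over the 12 arrays. In the low-low muscles the brightest probe set of all 10 genes lay below every one of the other 9 arrays. The differences ran from −4.05 to −1.30 log2 with a median of −3.07, against a median of −0.02 over 10316 genes. Of those genes, 32 (0.31%) were lower by 2 log2 or more, and 144 (1.4%) were higher by as much. Ranked from the lowest, Hira was 1, Ube3al1 2, Dhx36 3, Nek1 4, Ankrd11 5, Setd5 7, Kpna1 8 and Thoc3 9, while Srrm2 was 63 and Mettl16 169. The genes at ranks 6 and 10, Slc16a6 and Gnb1, are not among the 10. The low-low values of Hira and Nek1 lay under the filter on dim probe sets, so their places rest on signal near the floor. With values under the filter raised to it, Ube3al1 was 1, Dhx36 2, Ankrd11 3, Setd5 5, Kpna1 6 and Thoc3 7, while Hira was 12 and Nek1 25.

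**Figure D1:**
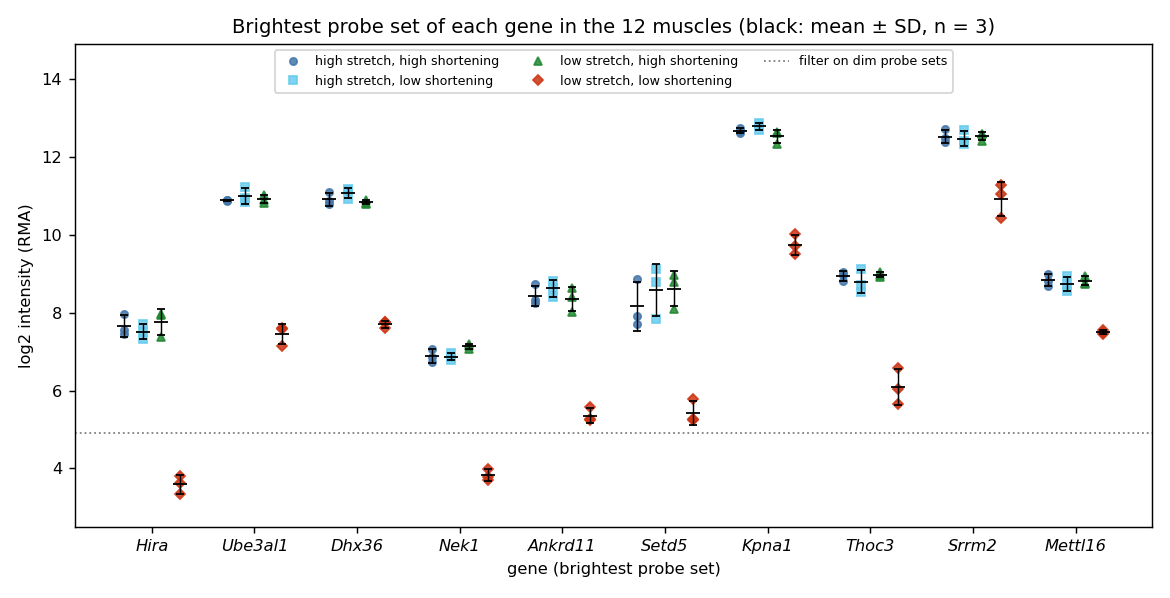
Log2 intensity (vertical axis) of the brightest probe set of each of the 10 genes in the 12 muscles, with group means ± SD (n = 3). Low-low muscles lie below the other 9 for every gene, with differences from −4.05 for Hira to −1.30 for Mettl16. Those of Hira and Nek1 lie under the dotted filter at 4.91, and with values raised to it they differ by −2.73 and −2.05, less than Ube3al1 at −3.49.

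Hira is the chaperone that deposits the histone variant H3.3 outside of replication. Its brightest probe set read 3.63, 3.82 and 3.34 in the 3 low-low muscles, and 7.32 to 7.97 in the other 9, with a median of 7.55. The low-low values were the lowest, without overlap, and 3.51 log2 separated the groups. The difference was −4.05 ± 0.16 log2 (SE, 3 against 9 arrays), or 16.6-fold. The low-low values were under 4.91, the level below which probe sets were filtered, so the size of the fall depends on signal near the floor. With every value under the filter raised to it, the difference was −2.73. The other Hira probe set read 3.90 to 4.16 in low-low and 3.97 to 4.32 elsewhere. It was dim in all 12 arrays and could not have shown a fall.

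Setd5, a SET-domain protein found with histone deacetylase complexes, and Ankrd11, an ankyrin-repeat cofactor that brings deacetylases to nuclear receptor complexes, each had 3 probe sets. The brightest of Setd5 read 5.79, 5.24 and 5.27 in low-low and 7.71 to 9.12 elsewhere (median 8.78), a difference of −3.02 ± 0.30 (SE). It had the widest spread of the 10 among the other 9 arrays (SD 0.55), and the groups did not overlap. The other Setd5 probe sets differed by −0.25 ± 0.11 and 0.23 ± 0.14 (SE), and in both the groups overlapped. The brightest of Ankrd11 read 5.26, 5.24 and 5.58 in low-low and 8.02 to 8.82 elsewhere (median 8.40), a difference of −3.11 ± 0.15 (SE). A second Ankrd11 probe set read 7.19, 7.06 and 7.08 against 7.36 to 8.32 (median 7.75). Its groups did not overlap either, though the gap was only 0.17 log2 and the difference −0.72 ± 0.13 (SE). The third differed by −0.43 ± 0.18 (SE) and overlapped. All 3 Ankrd11 probe sets were thus on the lower side, by unequal amounts, whereas those of Setd5 lay on both sides of 0.

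Dhx36, a helicase that unwinds G-quadruplexes in RNA and DNA, had 5 probe sets, the most of any of the genes. The brightest read 7.60, 7.76 and 7.76 in low-low and 10.78 to 11.17 elsewhere (median 10.90), a difference of −3.24 ± 0.10 (SE), or 9.42-fold. The next read 8.31, 8.72 and 8.93 against 10.08 to 10.77 (median 10.45), a difference of −1.81 ± 0.13 (SE). Both were low in all 3 low-low muscles without overlap. The third differed by −0.41 ± 0.15 and the fourth by 0.02 ± 0.12 (SE), and in both the groups overlapped. The fifth went the other way. It read 5.64, 5.39 and 5.70 in low-low and 3.64 to 4.14 elsewhere (median 3.77), 1.76 ± 0.12 log2 higher (SE). The other 9 arrays were under the filter for that probe set, and the difference was 0.66 with values raised to it. The probe sets of Dhx36 spanned 5.0 log2.

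Nek1, a NIMA-family kinase with roles in the DNA damage response and in cilia, and Ube3al1 had a single probe set each. That of Nek1 read 3.78, 3.71 and 3.99 in low-low and 6.74 to 7.19 elsewhere (median 6.96), a difference of −3.13 ± 0.10 (SE), or −2.05 with values raised to the filter. That of Ube3al1 read 7.61, 7.14 and 7.57 against 10.82 to 11.23 (median 10.89), a difference of −3.49 ± 0.12 (SE). Neither pair of groups overlapped. RefSeq's table of GRCr8 lists Ube3al1 as a long noncoding RNA, and its symbol names a likeness to the ubiquitin ligase gene Ube3a. Whether its probes also bind Ube3a transcripts was not tested. Ube3a itself had 3 probe sets past the filter, which differed by −0.81 ± 0.12, −0.71 ± 0.16 and 0.90 ± 0.13 log2 (SE; limma adjusted p 0.000121, 0.00265 and 0.00012). For Hira, Nek1 and Ube3al1 no other probe set was bright enough to set beside the brightest.

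Kpna1 encodes an importin alpha, an adaptor that binds nuclear localization signals, and Thoc3 a subunit of the THO complex. The brightest Kpna1 probe set read 9.71, 9.50 and 10.01 in low-low and 12.33 to 12.87 elsewhere (median 12.66), a difference of −2.92 ± 0.12 (SE). All 3 low-low values were lowest without overlap. Its other probe sets differed by −0.61 ± 0.12 and −0.15 ± 0.14 (SE) and overlapped. The brightest Thoc3 probe set read 6.58, 5.65 and 6.04 against 8.54 to 9.12 (median 8.96), a difference of −2.81 ± 0.17 (SE). The second Thoc3 probe set was higher in low-low, at 6.87, 6.56 and 6.75 against 6.06 to 6.37 (median 6.15), by 0.53 ± 0.10 (SE). Neither overlapped, so the Thoc3 probe sets separated the same muscles in opposite directions. The third had a mean under the filter in all 4 groups and read 3.73 to 4.00 against 4.22 to 5.14.

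Srrm2, a large scaffold protein of nuclear speckles, and Mettl16, which methylates adenosine in U6 RNA and in the messenger of the methionine adenosyltransferase Mat2a, had 2 probe sets each that parted completely. The brighter Srrm2 probe set read 11.28, 11.04 and 10.43 in low-low and 12.33 to 12.72 elsewhere (median 12.48), a difference of −1.59 ± 0.16 (SE). The dimmer read 9.44, 9.47 and 9.38 against 7.10 to 7.66 (median 7.58), a difference of 1.92 ± 0.12 (SE), or 3.79-fold higher. The rise was larger than the fall, and neither pair overlapped. The brighter Mettl16 probe set read 7.45, 7.48 and 7.56 against 8.57 to 8.99 (median 8.77), a difference of −1.30 ± 0.11 (SE). The dimmer read 8.77, 8.71 and 8.73 against 7.09 to 8.14 (median 7.56), a difference of 1.18 ± 0.18 (SE). Averaged over its probe sets, Srrm2 differed by 0.17 and Mettl16 by −0.06, so the direction of either gene depends on the probe set read.

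**Figure D2:**
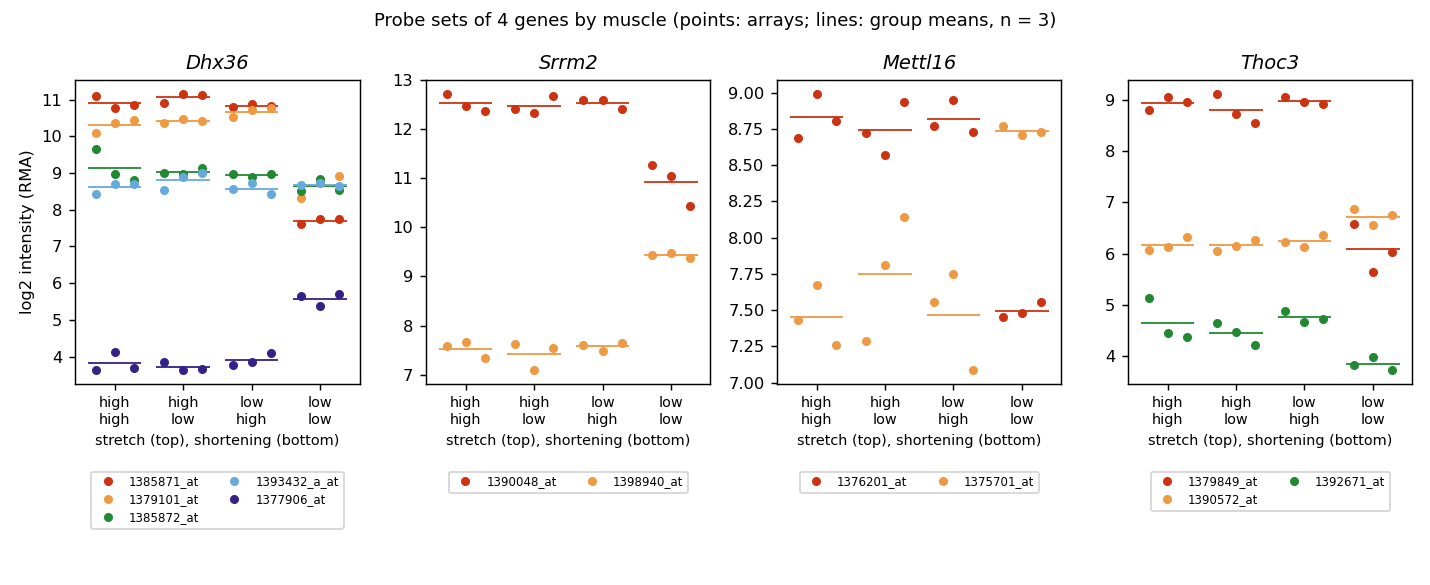
Log2 intensity (vertical axis) of every probe set of Dhx36, Srrm2, Mettl16 and Thoc3 in the 12 muscles, with a line at each group mean (n = 3). In the low-low muscles at least 1 probe set of each gene is below and at least 1 above all 9 other muscles, as for Srrm2 with −1.59 and 1.92 log2.

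Over all 25 probe sets, the 3 low-low arrays lay below the other 9 in 13 (16.1% of 31042 probe sets did so) and above them in 4 (15.5% did so), and the groups overlapped in 8. The 13 hold the 10 brightest probe sets that the choice fixed. Among the 15 others, 3 lay below (of Ankrd11, Dhx36 and Thoc3) and 4 above. The 3 of 15 are near the 16.1% of all probe sets and the 4 of 15 somewhat above the 15.5%. These are few probe sets and were not tested. By size, 11 of the 25 probe sets were lower by at least 1 log2, 3 were higher by at least 1 and 11 lay within 1. The filter on dim probe sets passed 22 of the 25, and the authors' filtered table holds 21. A mean at or over 4.91 in some group, enough to show a fall or a rise, was found for 23.

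**Figure D3:**
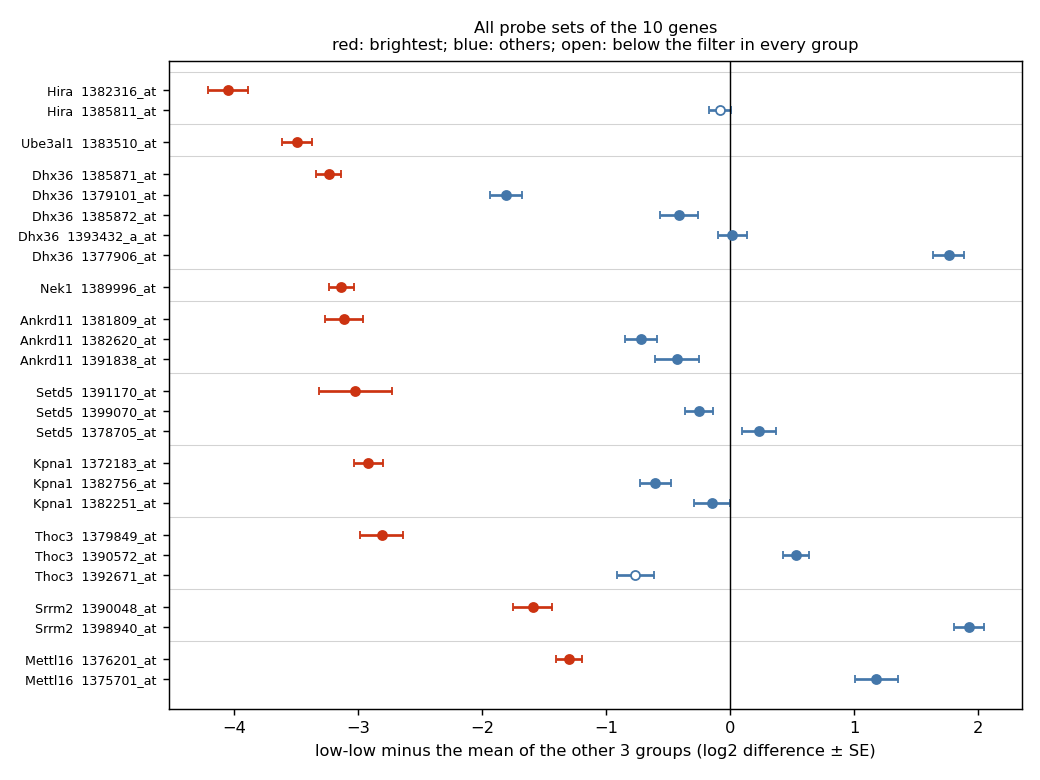
Log2 difference of the low-low group from the mean of the other 3 groups, ± SE, for all 25 probe sets, by gene. The brightest probe set of each gene (red) lies between −4.05 and −1.30, while the others (blue; open where below the filter in every group) spread from −1.81 to 1.92.

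Of the 7 genes with at least 2 such probe sets, 0 had all of them lower by 1 log2 or more. In all 7 the probe sets were apart by at least 1, with spans of 5.0 (Dhx36), 3.52 (Srrm2), 3.34 (Thoc3), 3.25 (Setd5), 2.77 (Kpna1), 2.68 (Ankrd11) and 2.48 log2 (Mettl16). In 3 of the 7 (Dhx36, Srrm2 and Mettl16) 1 probe set was lower and another higher by at least 1. For Dhx36 the higher one reached the filter in low-low only, and its difference was 0.66 with values raised to it. The count of Dhx36 among the 3 and its span of 5.0 rest on that probe set. Over the whole array, 2878 genes had 2 or more probe sets bright enough in some group. Of them 41.0% were apart by at least 1, 2.12% went both ways by 1, and the median span was 0.80 log2. Picking a gene for an extreme probe set widens its span by itself, so genes with an extreme brightest probe set are a nearer comparison. Among 32 genes whose brightest probe set was lower by 2 or more, 16 had several such probe sets, of which 15 (93.8%) were apart by 1 and 5 (31.2%) went both ways. All of the 10 genes but Srrm2 (−1.59) and Mettl16 (−1.30) are among those 32. Setd5, Ankrd11, Dhx36, Kpna1 and Thoc3 are among the 16, so the comparison is not independent of them. Among 147 genes whose brightest was higher by 2 or more, 27 had several. These counts are over 10666 genes with a probe set bright enough in any group, which is why 147 exceeds the 144 found among the 10316 genes past the filter. Of the 27, 22 (81.5%) were apart, 0 went both ways, and 9 (33.3%) were higher by 1 in all. Of the 16, 2 (12.5%) were lower by 1 in all. Means were also taken over each gene's probe sets past the filter. They differed by −1.42 (Ankrd11), −1.36 (Dhx36), −1.22 (Kpna1), −1.14 (Thoc3) and −1.01 log2 (Setd5). That of Dhx36 covered 4 of its 5 probe sets, without the one higher by 1.76, and that of Thoc3 covered 2 of 3.

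The low-low arrays also stood apart in measures of the arrays themselves. Gapdh and Actb each have controls near the 3′ and the 5′ end of the transcript, and the mean excess of 3′ over 5′ signal, called the index here, was 1.13 to 1.69 log2 in low-low and 2.56 to 4.33 in the other 9. Labelled weight, in a unit not stated, was 305 to 318 in low-low and 267 to 297 elsewhere. Spiked polyadenylated controls averaged 8.93 to 9.19 log2 in low-low, while in the other 9 they averaged 6.39 to 9.05. Pearson's r across probe sets, which are not independent, was 0.991 to 0.993 among low-low arrays and 0.951 to 0.962 between them and the rest. With the index as a covariate the median difference of the 10 brightest probe sets was −3.20, though no array outside low-low had an index as low. The part of the index, of weight and of the spikes in these differences was not tested further, and where the probes lie along each transcript was not used here. In bulk muscle, fewer cells of a type and less RNA per cell cannot be told apart.

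The tissue label was checked against markers. Of 9 cardiomyocyte markers 8 were on the array under a single symbol and all 8 passed the filter, among them myosin and troponin genes, while Actc1 was not measured. Their summed level was 16.76 to 16.81 log2 in low-low and 16.45 to 16.56 elsewhere. Endothelial (4 of 5), fibroblast (5 of 5), smooth muscle (3 of 4), macrophage (4 of 5), adipocyte (2 of 4), red cell (1 of 3) and lymphocyte (1 of 4) markers also passed, and 0 of 3 Schwann cell markers did. Not all of these were measured. Under a single symbol the array held 4 of the endothelial, 2 of the red cell, 3 of the lymphocyte and 1 of the Schwann cell markers. Single markers moved even where sums were close. By limma adjusted p, 3 cardiomyocyte markers were higher in low-low (Tnni3 by 0.97, Myl2 by 0.84 and Tnnt2 by 0.20 log2) and 1 was lower (Ryr2, −0.31). Adipoq and Plin1, which define fat cells, did not pass the filter, and the adipocyte sum was 13.29 to 13.54 against 13.03 to 13.37, carried by Lpl. Fabp4, a fatty acid binding protein of fat cells and capillaries, was higher by 5.58 ± 0.20 (SE; adjusted p 2.13e-09), with a mean of 9.43 in low-low and 3.86, under the filter, elsewhere. The fibroblast sum was 13.27 to 13.35 against 12.94 to 13.45, with Col3a1, a fibrillar collagen, higher by 2.52 and Pdgfra lower (−0.55). Endothelial markers had 2 higher (Pecam1 by 1.03, Tie1 by 0.90) and 2 lower (Tek, −0.70, and Kdr, −0.39), with a sum of 10.30 to 10.68 against 10.49 to 10.80. Macrophage markers had 2 higher (C1qb by 1.04, C1qa by 0.83) and 1 lower (Cd68, −0.46), with a sum of 8.32 to 9.21 against 8.36 to 8.73. Of smooth muscle, Acta2 was higher by 0.47 (sum 7.68 to 8.09 against 7.39 to 7.76), and of red cells Hbb was higher by 0.93 (7.01 to 8.60 against 6.21 to 7.41). The lymphocyte marker Cd3g passed the filter but not the threshold on adjusted p (4.94 to 5.18 against 4.80 to 5.39). Their part in the results on the 10 genes was not tested.

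The choice of genes used the 9 arrays outside low-low as the comparison but not the differences among them, and among these arrays the 10 genes showed no difference past the threshold. By limma's moderated F-test across high-high, high-low and low-high, 0 of the 22 probe sets past the filter were called (background 0.0% of 18625), with a smallest adjusted p of 0.987. At an unadjusted p under 0.05 limma gave 1, the second Ankrd11 probe set, against 841 (4.52%) of all probe sets. Its group means were 7.94 ± 0.18 in high-high, 8.0 ± 0.29 in high-low and 7.55 ± 0.17 in low-high (SD, n = 3).

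The pairwise contrasts of these 3 groups gave 66 tests over the 22 probe sets, with 0 called (background 0.0% in each contrast; limma's smallest adjusted p 0.774) and 4 at an unadjusted p under 0.05. Of all probe sets, 3.55% passed unadjusted for stretch at high shortening (high-high against low-high), 4.35% for shortening at high stretch (high-high against high-low) and 6.18% for high-low against low-high. The 4 of 66 lie near those shares. The largest difference was −0.45 log2 for the brightest Setd5 probe set, high-high minus low-high, with a 95% confidence interval of −1.24 to 0.34. For Hira the same contrast was −0.10 (−0.54 to 0.33), for Dhx36 0.08 (−0.19 to 0.34) and for Ube3al1 −0.03 (−0.35 to 0.29). Intervals reached 0.27 to 0.79 log2 to either side, with a median of 0.34, at 3 muscles a group. On simulated data the F-test recovered 10.4% of changes of 0.5 log2 at the adjusted threshold, so most changes of that size would be missed. The contrast of high-high with low-high concerns stretch at high shortening only. Stretch at low shortening involves the low-low group, on which the genes were chosen, and was not tested for them.

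The brightest probe sets were also set against the index within those 9 arrays. The 10 exact permutation tests (two-sided) gave 0 with a Benjamini-Hochberg p under 0.05 and a smallest of 0.232. The largest Pearson's r was that of Ube3al1, 0.73 (exact p = 0.034; Spearman's rho 0.40, exact p = 0.291), and r was 0.01 without the 2 arrays farthest from the median index, high-low replicates 2 and 3. Thoc3 had r −0.67 (exact p = 0.0537; rho −0.43, exact p = 0.25) and Hira r −0.63 (exact p = 0.0696; rho −0.62, exact p = 0.0857). Without those arrays Thoc3 turned to 0.68 and Hira kept −0.44. Dhx36 went from 0.45 (exact p = 0.215; rho 0.18, exact p = 0.644) to −0.92. Since the 3 groups differed in mean index, the relation was also taken with values and index centred on each group mean and permuted within groups, where the smallest possible p is 0.00463. The smallest Benjamini-Hochberg p was then 0.0926, for Nek1 and Hira, so 0 of 10 passed. Nek1 had r −0.78 (exact p = 0.00926; rho −0.90, exact p = 0.00926) and Hira r −0.65 (exact p = 0.0185; rho −0.70, exact p = 0.0231). Without the 2 arrays farthest from the median of the centred index, high-low replicates 1 and 3, r was −0.92 for Nek1 and −0.69 for Hira. Ube3al1 had r 0.68 (exact p = 0.329) before and −0.22 after those arrays were left out. The sign of r differed among the 10 genes, for example −0.63 for Thoc3, 0.48 for Mettl16 and 0.27 for Setd5 before arrays were left out. Several signs changed once high-low replicates 1 and 3 were left out. Then r was positive only for Thoc3 (0.74) and Mettl16 (0.40). It was negative for Setd5 (−0.78), Ankrd11 (−0.60), Dhx36 (−0.82), Kpna1 (−0.18) and Srrm2 (−0.78), as for Nek1, Hira and Ube3al1. The index spanned 2.56 to 4.33 in these 9 arrays and did not reach the low-low range.

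Genes that act with the 10, or belong to related families, were taken from 7 lists and are called partners here. The lists held 164 genes in all, of which 141 were tested. With limma adjusted p under 0.05, 40 (28.4%) were lower in low-low and 40 (28.4%) were higher, against 27.7% and 29.0% of all 10316 genes. The median difference was −0.03 log2, against −0.02 for all. The brightest probe sets of the partners therefore moved as often as those of genes in general and in both directions, and their shares are near the background. Of the 65 partners with 2 or more probe sets, 29 (44.6%) had probe sets apart by at least 1, near the 41.0% of all 2872 such genes. Among the other 3 groups limma's F-test called 0 of the 141, with 4 (2.84%) at an unadjusted p under 0.05. Over all 10316 genes it called 0, with 397 (3.85%) at an unadjusted p under 0.05.

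**Figure D4:**
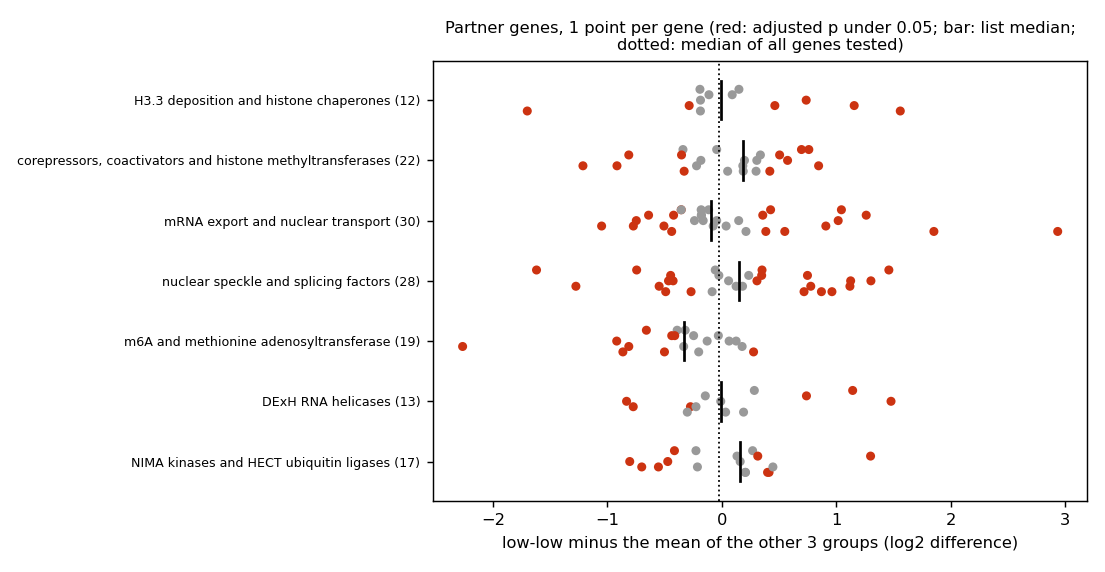
Log2 difference of the low-low group from the mean of the other 3 groups (horizontal axis), 1 point per partner gene by its brightest probe set, for the 7 lists with the number tested. Points past an adjusted p of 0.05 (red) lie on both sides in each list, the bars mark list medians from −0.33 to 0.18, and the dotted line marks the median of all genes, −0.02.

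Around Hira, the list of histone chaperones and deposition factors had 12 tested genes, 2 lower and 4 higher, with a median of −0.01. Ubn1, a subunit of the Hira complex, read 8.33 ± 0.47 in low-low (SD, n = 3) and fell by 1.70 ± 0.20 log2 (SE; limma adjusted p 1.96e-05), although its other probe set differed by 0.15 (adjusted p 0.287). Asf1a, which hands histones to the complex, rose by 1.56 ± 0.13 (adjusted p 7.83e-07), with another probe set at −0.24. Cabin1, also of the complex, differed by −0.19 ± 0.13 (adjusted p 0.255) and did not pass, though without low-low replicate 2 it did (−0.35, adjusted p 0.0478). Atrx, which with Daxx deposits the same histone at repeats, rose by 1.15, with a probe set at −0.95, and Ssrp1, a subunit of FACT, rose by 0.74 (adjusted p 0.000104). By their brightest probe sets, Ubn1, Asf1a and Cabin1 thus read lower, higher and without a call. The list's count of lower genes was 1 without any single one of high-high replicates 1 and 2, high-low replicate 1, low-high replicates 1 to 3 and low-low replicate 3, and with the replicate block.

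Around Setd5 and Ankrd11, corepressors, coactivators and histone methyltransferases had 22 tested genes, 5 lower and 6 higher, with a median of 0.18. Hdac3, the deacetylase of the NCoR complex, rose by 0.84 ± 0.11 (SE; limma adjusted p 2.83e-05). Nsd1 and Kmt2a, methyltransferases of histone H3, fell by 0.92 and 0.81, and the other probe set of each was also lower, at −0.28 and −0.76. Kmt2e, the close relative of Setd5, fell by 1.21 ± 0.11 at its brightest probe set (adjusted p 1.34e-06). It had 5 probe sets, of which another rose by 1.24 (adjusted p 7.57e-07), and their mean differed by 0.16. Ankrd12, the relative of Ankrd11, differed by 0.05 ± 0.17 (adjusted p 0.821) and −0.20 at its second probe set (adjusted p 0.136). Without low-low replicate 1 or 2 the list had 3 lower genes.

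Around Thoc3 and Kpna1, messenger RNA export and nuclear transport had 30 tested genes, 8 lower and 10 higher, with a median of −0.10. Alyref, the adaptor that TREX loads on RNA, read 10.03 ± 0.16 in low-low (SD, n = 3) and rose by 2.93 ± 0.13 log2 (SE; limma adjusted p 4.9e-09), or 7.63-fold. Sarnp, another TREX protein, rose by 1.85 ± 0.09 (adjusted p 1.19e-08), and Ipo7, an importin of the beta family, rose by 1.26. Thoc1, a THO subunit like Thoc3, fell by 1.05 ± 0.09 (adjusted p 1.14e-06). Alyref, Sarnp, Ipo7 and Thoc1 each had a single probe set, so their probe sets could not be compared. Kpna6, an importin alpha close to Kpna1, differed by −0.18 ± 0.13 (adjusted p 0.266), and its second probe set was at −0.23 (adjusted p 0.0422).

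Around Srrm2, speckle and splicing factors had 28 tested genes, 9 lower and 12 higher, with a median of 0.15. Tra2a and Rbm25, regulators of exon choice, rose by 1.46 ± 0.13 and 1.12 ± 0.09 (SE; limma adjusted p 1.66e-06 and 7.75e-07). U2af1, which binds the 3′ splice site, fell by 1.28 ± 0.13 (adjusted p 4.06e-06). Rbm39, a relative of the U2af factors, rose by 1.12, with probe sets from −0.41 to 3.04. Srrm1, which works with Srrm2 in splicing, did not pass at its brightest probe set (−0.06 ± 0.09, adjusted p 0.62), but its others differed by −1.31 and 0.72 (adjusted p 5.55e-06 and 5.07e-05). Srrm1 thus had probe sets in opposite directions, as Srrm2 did.

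Around Mettl16, the RNA adenosine methylation genes and the methionine adenosyltransferases had 19 tested genes, 8 lower (42.1%) and 1 higher (5.26%), with a median of −0.33. Ythdf2, a reader of methylated RNA that speeds its decay, read 8.96 ± 0.19 in low-low (SD, n = 3) and fell by 2.26 ± 0.20 log2 (SE; limma adjusted p 1.46e-06). Its second probe set differed by −1.46, so both were well below. Virma and Cbll1, subunits of the methyltransferase complex, fell by 0.92 and 0.81, each with a second probe set also lower (−0.55 and −0.43), and Ythdc1, the nuclear reader, fell by 0.66. Mettl3, the catalytic subunit, differed by −0.25 ± 0.10 (adjusted p 0.0605) and did not pass, except without low-low replicate 2 (adjusted p 0.0359). Mat2a, whose messenger Mettl16 methylates, rose by 0.28 ± 0.10 at its brightest probe set (adjusted p 0.0278) and by 1.41 ± 0.19 at another (adjusted p 5.92e-05). The first of these calls was lost without low-low replicate 2 or 3 (adjusted p 0.11 and 0.0821), under repeated quantile normalization (0.13, adjusted p 0.268) and with weight as a covariate (adjusted p 0.133). With the index as a covariate 2 genes of the list were lower, and with weight 5.

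Around Dhx36, DExH helicases had 13 tested genes, 3 lower and 3 higher, with a median of −0.01. Dhx9, which also unwinds RNA structures, rose by 1.48 ± 0.13 (SE; limma adjusted p 2.01e-06), Dhx32 rose by 1.14 and Dhx30, a mitochondrial RNA helicase, by 0.74. Dhx29, a translation initiation helicase, fell by 0.83 ± 0.10 (adjusted p 2.3e-05). Around Nek1 and Ube3al1, NIMA kinases and HECT ubiquitin ligases had 17 tested genes, 5 lower and 4 higher, with a median of 0.16. Huwe1, a large HECT ligase, rose by 1.30 ± 0.10 (adjusted p 7.11e-07), with a probe set at −1.08. Smurf2, a ligase of TGF-beta signalling, fell by 0.70, and Nek3 by 0.55 ± 0.11 (adjusted p 0.00111). Without low-low replicate 2 that list had 2 higher genes.

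Over all partner lists, with the index as a covariate, 11 partners were called lower and 15 higher, and with weight as a covariate 19 and 22. Some partners named above were no longer called with the index, with limma adjusted p from 0.0517 (Virma) to 0.907 (Mat2a), though their directions held. Of these, Dhx29, Dhx30, Nek3, Ubn1 (−1.77), Virma (−1.16) and Ythdc1 differed by more than without it. Cbll1, Hdac3 (0.42), Kmt2a, Mat2a (0.06), Nsd1, Ssrp1 (0.23), U2af1 and Ube3a (−0.39) differed by less. The index of the low-low arrays did not overlap with that of the others. Averaged over their probe sets, Atrx (0.14), Huwe1 (0.11) and Ube3a (−0.21) did not pass either (adjusted p 0.244, 0.424 and 0.165). The calls of Alyref, Sarnp, Ipo7, Thoc1, Ythdf2, Asf1a, Dhx9, Dhx32, Rbm25, Tra2a, Rbm39 and Smurf2 held with the index and with weight.

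The accession that the platform annotation gives for a probe set shows what kind of record it was designed from. Of the 25 probe sets, 0 had a RefSeq transcript accession, 23 had another kind and 2 had none. Over the 20826 probe sets with 1 symbol, 14.1% had a RefSeq accession. The share was 1.56% among 64 probe sets lower by 2 log2 or more in low-low, and 21.2% among 345 higher by as much. The share was thus low for all probe sets far lower in these muscles, and the 25 were counted with no test.

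The genes most like the 10 across the 12 arrays, by Pearson's r with the mean of their standardized brightest probe sets, were Mrps6 (r 0.995), Zfp496 and Usp10 (0.992 each), Rab14 and Zc3hc1 (0.991 each). Their low-low differences were −1.0, −1.75, −1.32, −2.46 and −2.02 log2. Likeness here rests mainly on the gap between the same 3 arrays and the other 9. Rab14 had 4 probe sets, of which 1 was higher by 1.53, and Zfp496 had a second at 0.50, while Mrps6, Usp10 and Zc3hc1 had 1 each.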

How the data were processed

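Total RNA (100 ng per muscle) was labelled and hybridized to Affymetrix arrays, per the labels' protocols. The deposited values are log2 intensities from RMA, which the submitters' processing notes name without a version. The platform's table of probe genes paired 20826 of 31042 probe sets with 1 symbol. A filter at the 40th percentile of mean intensity (4.91) kept 18625 probe sets. A mean per group was fitted with limma (version 3.58.1, R 4.3.3) and its empirical Bayes step, with Benjamini-Hochberg adjustment over these probe sets and a threshold of 0.05. A gene was represented by its brightest probe set.

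Named were the 10 genes with all probe sets, up to 4 partner genes of smallest adjusted p per list, 12 partners whatever their values, and the 5 genes of highest r. The members, lists and tests were chosen with earlier results of these data known. On simulated data the contrast of low-low with the other groups recovered 89.6% of changes of 1 log2 and the F-test 80.6%. The simulated noise was independent and few probe sets were changed. In the real data limma called 28.6% of probe sets lower and 27.6% higher in low-low at adjusted p under 0.05. The first rate is therefore not that of the real contrast. The number of arrays limits the precision. Same-numbered replicates did not deviate together (residual r −0.158 to 0.213 over 18 pairs) and were treated as unpaired. Python 3.11.15 and matplotlib 3.10.9 drew the figures.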

Additional observations from a re-analysis of the deposited data

How the results depend on the processing

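Alternatives were no filter, the authors' filtered table or its intensity minimum of 50, repeated quantile normalization, array weights, a trended robust prior, the replicate block, the index or weight as a covariate, values raised to the filter, the mean over a gene's probe sets, and leaving out each array. The median over the brightest probe sets was −3.31 with weight as a covariate and −3.13 to −2.98 when arrays were left out. As the mean of each gene's probe sets past the filter, the median was −1.29. The count of member probe sets called among the other 3 groups stayed at 0 in every setting run, as did the index relations past the threshold, also with Gapdh or Actb controls alone or centred on group means. The counts of genes with probe sets all lower, apart and in both directions stayed at 0, 7 and 3 when arrays were left out; without the filter 8 of 8 were apart, and 2 went both ways in the filtered table, at the intensity minimum, with raised values and under the replicate block. Partner calls were 11 lower and 15 higher with the index covariate, 19 and 22 with weight, and 34 to 41 each with arrays left out. Over all genes, the index covariate gave 714 lower and 1176 higher, so 37.8% of calls were lower against 48.8%, and weight gave 1214 and 1694 (41.7% lower). With the index, lists had, lower and higher, 1 and 2 (histone chaperones), 1 and 1 (corepressors), 4 and 3 (export), 1 and 5 (speckles), 2 and 0 (adenosine methylation), 1 lower (helicases), and 1 and 2 (kinases and ligases). With weight they had 1 lower, 3 and 2, 4 and 6, 2 and 7, 5 and 0, 1 lower, and 3 and 1 in the same order. Leaving out arrays gave 1 to 3 lower and 4 higher for chaperones, 3 to 7 and 6 to 7 for corepressors, 7 to 9 and 8 to 10 for export, 7 to 9 and 10 to 13 for speckles, 6 to 10 and 0 to 1 for adenosine methylation, 2 to 3 and 3 to 4 for helicases, and 4 to 5 and 2 to 5 for kinases and ligases. The replicate block left 1 chaperone lower. For adenosine methylation, repeated quantile normalization left 0 higher and the mean of probe sets gave 2. As a mean of probe sets Kmt2e turned to 0.16. Apart from the probe sets averaged in that setting, the causes were not tested.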
